A study of Mus musculus with 8 samples.

Results

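Adam1a, Adam1b, Adam2, Adam3, Adam4, Adam5, Adam6a, Adam6b, Adam18 and Adam32 were followed through the postnatal development of the mouse testis. These 10 genes were picked by name from a table of 23983 genes, as the genes of fertilin, of cyritestin and of the testis ADAM proteins grouped with them. The testes were taken 12, 16 or 24 days after birth (d12, d16 and d24) or from adult mice. The labels give C57BL/6J as the genotype of every library and name no transgene or treatment, and RNA was prepared from a piece of testis. Each stage was represented by 1 library, so no value has a standard deviation, and differences between stages include any difference between animals, tissue pieces and preparations. Values are in FPKM, fragments mapped to a gene scaled for the length of its transcript and by 1 factor for each library. That factor did not simply follow the number of fragments on genes, as given with the processing below. Intervals in parentheses are exact 95% intervals from the number of fragments and cover counting error only.

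ADAM proteins are membrane proteins with a metalloprotease-like and a disintegrin domain. Fertilin is a pair of ADAM proteins of the sperm surface, with ADAM1 as the alpha and ADAM2 as the beta subunit, and cyritestin is ADAM3. Mouse sperm that lack ADAM2 or ADAM3 bind poorly to the coat of the egg and fail to pass from the uterus into the oviduct. The mouse has separate genes for the alpha subunit: ADAM1A pairs with ADAM2 in the endoplasmic reticulum of germ cells in the testis, and ADAM1B pairs with ADAM2 on sperm. Germ cells of the first wave of spermatogenesis pass through meiosis and become spermatids in the first weeks after birth, so testes of successive ages contain successively later cells.

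The genes lie at 5 places in the GRCm38 genome. Adam1a (chr5:121518604-121521695) and Adam1b (chr5:121500096-121503435) lie within 21.6 kb of each other, and Adam6a (chr12:113543908-113546414) and Adam6b (chr12:113489565-113491835) within 56.9 kb. Adam18, Adam3, Adam5 and Adam32 follow each other on chr8:24602246-24948918, all on the minus strand. Adam2 (chr14:66027322-66077851) and Adam4 (chr12:81419443-81422039) stand alone. Adam1a, Adam1b, Adam4, Adam6a and Adam6b have 1 exon each in RefSeq, and the other members have between 19 and 22.

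The single-exon pairs resemble each other in their transcripts. Of the 50-base stretches of the Adam1a transcript, 35.0% also occurred in Adam1b, and 29.5% of those of Adam6a occurred in Adam6b. The aligned parts of the Adam6a and Adam6b transcripts were 94.9% identical and covered 90.2% of Adam6a. Fragments from such stretches can be assigned to either gene, so the split within each pair is less certain than the sum. Adam4 shared 12.7% of its stretches with Gm4787, a neighbouring ADAM-like gene. Adam2, Adam3, Adam5, Adam18 and Adam32 shared no stretch of that length with any other RefSeq gene.

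Upstream sequence was found in the RefSeq promoter table for Adam1a, Adam1b, Adam6a and Adam6b. The Adam6 pair is shown because both genes appeared at the same stage at nearly equal levels. An identical block of 149 bases lies directly before the Adam6a start, at chr12:113543759-113543907, and before the Adam6b start, at chr12:113489315-113489463, both on the plus strand. Capitals mark TTTATA, a match to TATAAA on the minus strand. In Adam6b the block begins at the edge of the 250-base window and ends 101 bases before the annotated start. In Adam6a it ends at the other edge of the window, the annotated start. The length of 149 bases is thus set by the windows, and sequence beyond them was not compared. RefSeq annotates Adam6b as coding sequence from its first to its last base (2271 bases), whereas the Adam6a transcript (2507 bases) extends beyond its coding length of 2265 bases.
Adam6a: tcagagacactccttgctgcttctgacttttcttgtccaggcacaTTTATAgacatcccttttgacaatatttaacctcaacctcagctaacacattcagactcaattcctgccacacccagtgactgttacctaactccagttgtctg
Adam6b: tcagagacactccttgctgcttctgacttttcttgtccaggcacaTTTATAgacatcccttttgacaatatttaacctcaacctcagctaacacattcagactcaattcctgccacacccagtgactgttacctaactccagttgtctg

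The 100 bases before Adam1a (chr5:121521696-121521795) and Adam1b (chr5:121503436-121503535), both read on the minus strand, are shown as the contrasting pair. In the windows of 250 bases before both starts the longest shared run was 7 bases, and no base is in capitals.
Adam1a: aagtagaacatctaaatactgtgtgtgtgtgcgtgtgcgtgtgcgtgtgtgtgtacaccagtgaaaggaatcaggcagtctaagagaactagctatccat
Adam1b: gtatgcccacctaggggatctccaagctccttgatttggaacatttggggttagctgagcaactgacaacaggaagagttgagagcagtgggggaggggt

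TATAAA was found on either strand in 2 of the 4 windows, those of Adam6a and Adam6b, and in 12.4% of the 32851 RefSeq windows of this length. Both matches lie in the identical block of 149 bases, so they are 1 sequence in 2 copies and not independent. Other motifs were searched on both strands and occurred in none of the 4 windows. The cAMP response element TGACGTCA was found in 1.55% of all windows. Its part TGACGT, which overlaps it, was found in 6.47%. The core of the A-MYB motif, AACNGC, was found in 29.9%. A part of the X-box, GTTGCC, was found in 10.4%. A motif match does not show binding, and absence of the letters says nothing about the factor.

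All 10 genes were low at d12 and higher at d24 and in the adult. Summed over the genes, their part of all FPKM was 0.00218% at d12 and 0.0836% at d16, and then 0.435% at d24 and 0.479% in the adult. No gene reached 2 FPKM, the limit of expression in the study's methods, at d12, where 44.9% of all genes in the table did. At d16, 8 of the 10 lay above it for the first time (3.55% of all genes), although Adam1a at 2.56 FPKM and Adam4 at 2.61 FPKM were just inside. Adam6a and Adam6b followed at d24 (6.3% of all genes) and none was left for the adult (1.98%).

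**Figure D1:**
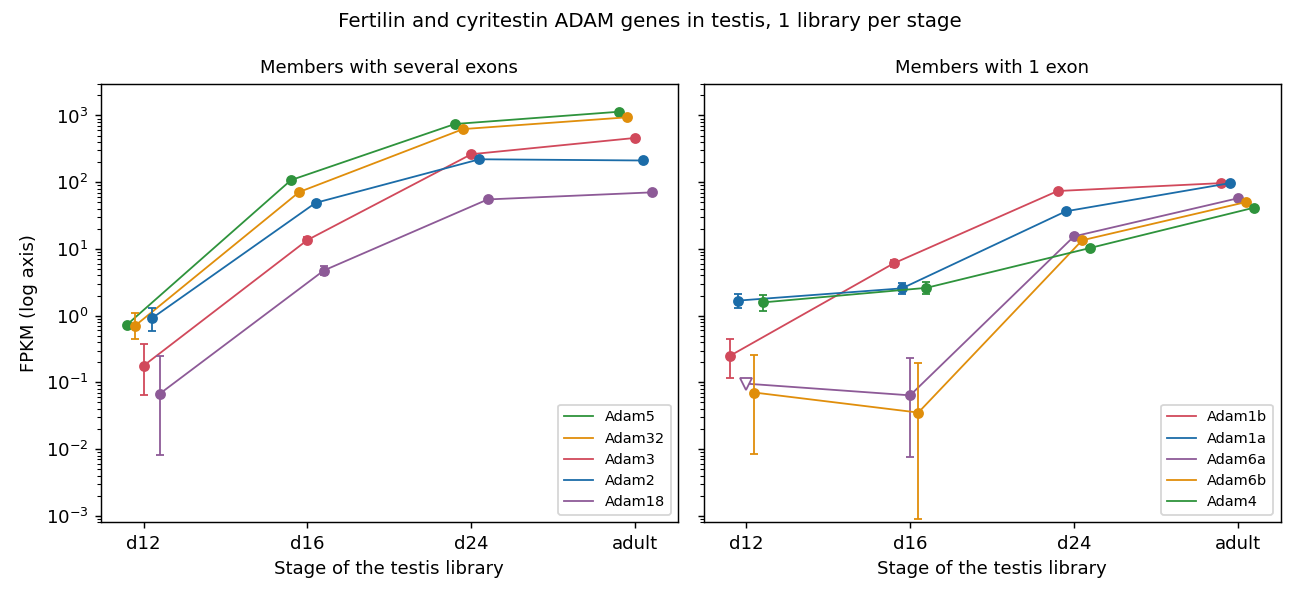
FPKM (log axis) of the members in the 4 testis libraries, with the members of several exons on the left and those of 1 exon on the right; points are single libraries, bars are 95% counting intervals (Adam5 has none), and the open triangle places Adam6a at d12, listed at 0, at the value of 3 fragments. Adam5 and Adam32 are highest from d16 on, and Adam6a and Adam6b stay under 0.1 FPKM until d24.

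In bulk testis RNA, fewer cells of a type and less RNA per cell cannot be told apart. Summed pachytene and round spermatid markers were higher at each later stage, as was the sum of the members. Summed elongating spermatid markers were lower at d16 than at d12 and higher from d24 on. The 6 pachytene spermatocyte markers summed to 66.1 FPKM at d12 and 863.6 at d16, and then 3666 at d24 and 4400 in the adult. The 6 round spermatid markers summed to 5.28, 20.9, 729.7 and 1649 FPKM, with 3 of them at 0 at d16 and none at 0 at d24. The 6 elongating spermatid markers summed to 13.2, 4.45, 2363 and 26390 FPKM. Sums of 6 Sertoli cell markers went the other way, from 180.6 at d12 to 63.0 FPKM in the adult. Those of 6 Leydig cell markers were 131.6 FPKM at d12 and 82.4 at d16, and then 153.4 at d24 and 580.7 in the adult. The part of cell composition in the changes below was not tested.

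Adam2, the fertilin beta subunit, was already abundant at d16. It measured 0.908 FPKM at d12 (0.598 to 1.28), 49.0 at d16 (46.6 to 51.5), 220.5 at d24 (216.6 to 224.4) and 211.4 in adult testis (205.5 to 217.4). Adam2 thus stood at 23.2% of its adult level at d16, the highest share among the 10 genes, and at 104.3% at d24. The value at d16 was 54.0-fold that at d12 (38.1 to 82.2), and the d24 value was 4.50-fold that at d16 (4.27 to 4.74). The adult to d24 ratio was 0.959 (0.928 to 0.991).

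The genes of the alpha subunit differed in their course. Adam1b measured 0.249 FPKM at d12 (0.115 to 0.440), 6.07 at d16 (5.36 to 6.88), 73.7 at d24 (71.8 to 75.7) and 96.9 in the adult (93.4 to 100.5). Adam1a was higher than Adam1b at d12, at 1.68 FPKM (1.30 to 2.14), and lower at d16, at 2.56 (2.08 to 3.12), and at d24, at 36.6 (35.2 to 38.1). In the adult Adam1a measured 96.7 FPKM (93.0 to 100.4), and the difference from Adam1b in FPKM lay within counting error. The ratio of Adam1a to Adam1b was 6.74 at d12 (3.59 to 15.3), 0.422 at d16 (0.330 to 0.533), 0.496 at d24 (0.473 to 0.521) and 0.998 in the adult (0.946 to 1.05). About 10 fragments of Adam1b stood behind the d12 ratio.

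Between d12 and d16 Adam1a differed by 1.53-fold (1.11 to 2.12), whereas Adam1b was 24.4-fold higher at d16 (13.6 to 53.7). From d24 to the adult Adam1a was 2.64-fold higher (2.50 to 2.79) and Adam1b 1.31-fold (1.26 to 1.38). The beta to alpha ratio, Adam2 over the sum of Adam1a and Adam1b, was 0.471 at d12 and 5.68 at d16, and then 2.00 at d24 and 1.09 in the adult. FPKM of the beta gene and of the alpha genes were thus most unequal at d16 and nearly equal in the adult.

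Adam3, the cyritestin gene, came later than Adam2 and reached a higher adult level. Its values were 0.177 FPKM at d12 (0.0644 to 0.382), 13.6 at d16 (12.4 to 14.9), 262.5 at d24 (258.4 to 266.6) and 460.5 in the adult (452.0 to 469.1). At d16 it stood at 2.95% of its adult level, and at d24 at 57.0%. The ratio of Adam2 to Adam3 was 5.13 at d12 (2.08 to 15.0), 3.61 at d16 (3.25 to 4.01), 0.840 at d24 (0.821 to 0.860) and 0.459 in the adult (0.444 to 0.475). Adam2 thus exceeded Adam3 at d12 and d16, and Adam3 exceeded Adam2 at d24 and in the adult, in each case beyond counting error. These ratios compare genes within a library, so the scaling between libraries does not enter them.

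**Figure D2:**
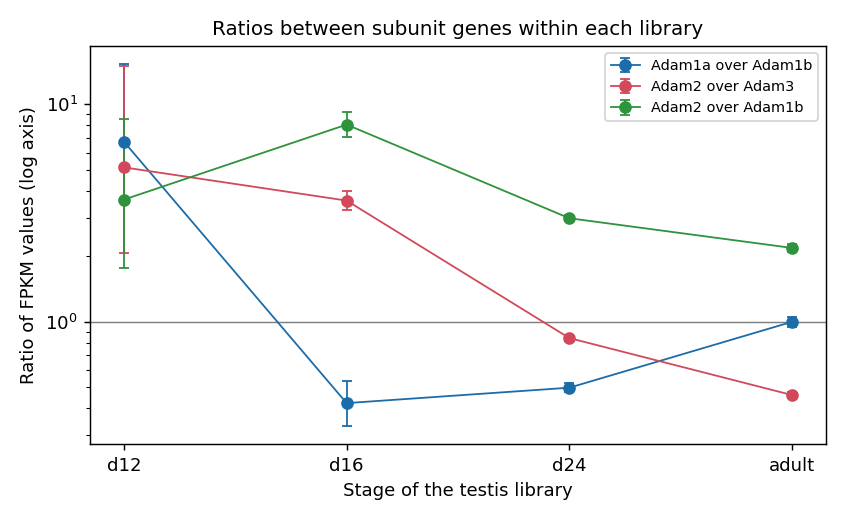
Ratio of FPKM values (log axis) of Adam1a to Adam1b, Adam2 to Adam3 and Adam2 to Adam1b within each of the 4 libraries, with 95% counting intervals as bars. The ratio of Adam2 to Adam3 goes from 5.13 at d12 to 0.459 in the adult, and that of Adam1a to Adam1b reaches 0.998 in the adult.

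Adam5 and Adam32, which follow Adam3 in the cluster on chromosome 8, had the highest levels. ADAM5 has been found in complexes with ADAM2 and ADAM3. Adam5 measured 0.735 FPKM at d12 and 107.5 at d16, and then 745.1 at d24 and 1137 in the adult, where it ranked 42 among 23983 genes. Its RefSeq transcripts differ in length by more than a factor of 1.1, so no fragments and no intervals are given. Adam32 measured 0.710 FPKM at d12 (0.442 to 1.09), 71.2 at d16 (68.2 to 74.4), 625.1 at d24 (618.3 to 632.0) and 938.0 in the adult (924.9 to 951.2), at rank 61. The ratio of Adam5 to Adam32 stayed between 1.03 at d12 and 1.51 at d16. Of all pairs of members, Adam5 and Adam32 had the most similar course, with a distance of 0.392 between their centred log2 values over the 4 libraries.

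Adam18, the remaining gene of that cluster, had the same order of stages at a lower level. It measured 0.0676 FPKM at d12, from 2 fragments, 4.74 at d16 (4.00 to 5.62), 55.1 at d24 (53.1 to 57.2) and 70.3 in the adult (66.8 to 74.1). The ratio of Adam3 to Adam18 was 2.87 at d16 (2.36 to 3.48), 4.76 at d24 (4.57 to 4.96) and 6.55 in the adult (6.20 to 6.92). With 0.1 FPKM added before the log2, Adam18 was closest in its course to Adam1b (distance 0.567) and not to a gene of its own cluster. The added value is larger than the d12 value of Adam18, so this order is uncertain. Without it the log2 ratio of d16 to d12 was 6.13 for Adam18, 4.61 for Adam1b and 6.65 for Adam32.

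Summed FPKM of Adam18, Adam3, Adam5 and Adam32 made up 27.4% of all members at d12 and 76.6% at d16, and then 82.0% at d24 and 82.5% in the adult. The neighbours outside the cluster had other courses. Adam9, a widely expressed ADAM gene 693 bp from Adam32, measured 21.7 FPKM at d12 and 18.1 at d16, and then 14.0 at d24 and 12.7 in the adult. Tm2d2, next to it, measured 8.91, 12.5, 26.2 and 23.3 FPKM. Ido1, 5294 bp beyond Adam18, and Ido2 did not exceed 0.0677 FPKM at any stage; both encode enzymes of tryptophan breakdown.

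**Figure D3:**
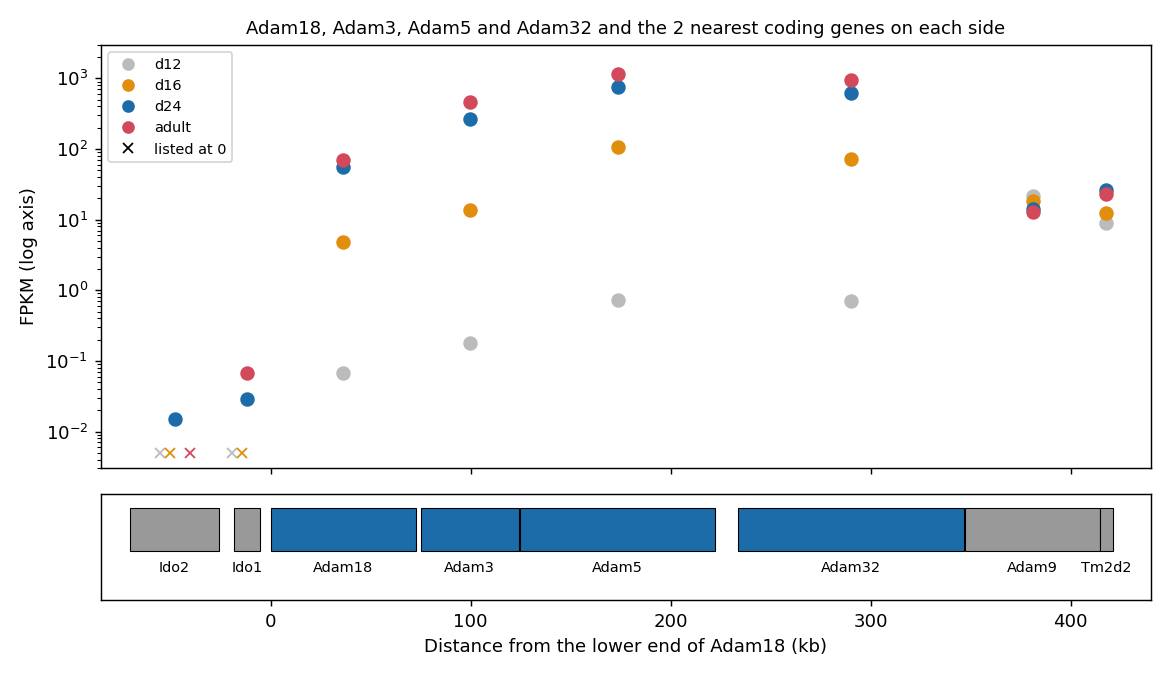
Upper panel, FPKM (log axis) of Adam18, Adam3, Adam5, Adam32 and the nearest coding genes in the 4 libraries, drawn at the middle of each gene; lower panel, the spans of the genes to scale, with members in blue, by distance in kb from the lower end of Adam18. The members span more than 2 orders of magnitude between d12 and the adult, and Adam9 goes from 21.7 to 12.7 FPKM.

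Adam6a and Adam6b, whose protein has been found in complexes with ADAM2 and ADAM3, were the last of the members to appear. Adam6a had no fragment at d12 (0 FPKM, with 3 fragments worth 0.0956), then 2 fragments at d16 (0.0638 FPKM), 15.4 FPKM at d24 (14.4 to 16.5) and 57.4 in the adult (54.3 to 60.6). Adam6b, with 2 fragments at d12 (0.0703 FPKM) and 1 fragment at d16 (0.0352 FPKM), measured 13.5 FPKM at d24 (12.5 to 14.5) and 50.4 in the adult (47.4 to 53.6). Expression at d12 and d16 was therefore at or under the limit that 3 fragments set. The adult level of Adam6a was at least 600.4-fold higher than that limit at d12. The d24 value was 241.5-fold that at d16 for Adam6a (66.7 to 1998) and 382.4-fold for Adam6b (68.4 to 15120), wide intervals that come from 2 fragments and 1 fragment.

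The ratio of Adam6a to Adam6b was 1.14 at d24 (1.03 to 1.27) and 1.14 in the adult (1.05 to 1.24). Without division by transcript length it was 1.26 at both stages. Both genes lie within the annotated span of the immunoglobulin heavy chain locus, on its opposite strand, and the libraries kept strand. The nearest coding genes of the table, Tmem121 and 4930427A07Rik on the side of lower coordinates and Zfp386 and Vipr2 on the other, lie 300042 to 2531006 bp away. Of these, 4930427A07Rik measured 1.36 FPKM at d12 and 4.88 in the adult, and Zfp386 12.4 and 10.7.

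Adam4, found in a complex with ADAM2 and ADAM3, had the lowest adult level and the smallest overall difference. It measured 1.58 FPKM at d12 (1.17 to 2.06), 2.61 at d16 (2.09 to 3.24), 10.4 at d24 (9.54 to 11.2) and 41.6 in the adult (39.0 to 44.3), a ratio of 26.4 between adult and d12 (20.01 to 35.9). Adam4 and Adam1a were the members with the highest d12 values. Gm4787, which lies 39957 bp from Adam4 and is 88.0% identical to it over 97.2% of the Adam4 transcript, measured 2.08 FPKM at d12 and 1.86 at d16, and then 31.4 at d24 and 106.8 in the adult. Adam21, on the other side, measured 0.274, 0.247, 5.14 and 14.4 FPKM. Adam4 lies within the span of Cox16, on the same strand, with no exon base in common, and Cox16 went from 7.64 FPKM at d12 to 12.7 in the adult.

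By adult level the order was Adam5, Adam32, Adam3, Adam2, Adam1b, Adam1a, Adam18, Adam6a, Adam6b and Adam4. Adam1b and Adam1a could not be separated by counting error in FPKM. Without division by transcript length (3092 bases for Adam1a and 3340 for Adam1b) their ratio was 0.924. The interval given above (0.946 to 1.05) is that of the ratio after this division and does not apply to 0.924. The intervals of Adam6a (54.3 to 60.6) and Adam6b (47.4 to 53.6) did not overlap. Adam5 has no interval and is 1.21-fold above Adam32.

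Counted by step, 6 of 10 members were at least 2-fold higher at d16 than at d12, against 12.6% of the 13901 genes whose mean over the libraries was 1 FPKM or more. The counts use log2 values after adding 0.1 FPKM, which understates the differences of low genes, and all 10 members passed the filter, Adam6a and Adam6b through their d24 and adult values alone. The 6 were Adam1b, Adam2, Adam3, Adam5, Adam18 and Adam32. From d16 to d24 all 10 were at least 2-fold higher, against 27.5%. From d24 to the adult 4 of 10 were, against 11.4%, and these were Adam1a, Adam4, Adam6a and Adam6b. No member was 2-fold lower at any step, against 3.67%, 8.45% and 2.2% of genes. The median log2 difference of the members was 4.50, 3.55 and 0.71 over the 3 steps, and that of all genes 0.00, 0.13 and -0.02.

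The last step depended on the scaling between libraries. The deposited FPKM summed to 283600 at d12 and 659200 in the adult. Scaling the libraries to the same FPKM sum moved the median of all genes from -0.02 to -0.49 (log2) between d24 and adult. With that scaling the adult to d24 ratio of Adam1a was 1.89, that of Adam1b 0.942, that of Adam18 0.915 and that of Adam2 0.688. The ratios of Adam4 (2.88), Adam6a (2.67) and Adam6b (2.68) stayed above 2. The order of the 10 ratios is the same under each scaling, since a scaling multiplies all of them alike.

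**Figure D4:**
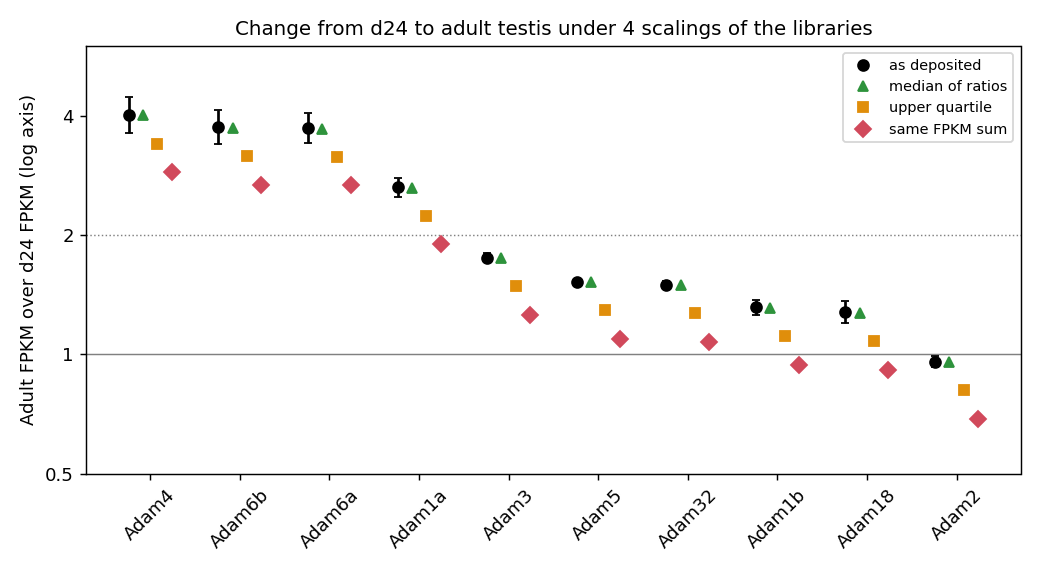
Ratio of adult to d24 FPKM (log axis) of each member under the deposited values and 3 other scalings, with 95% counting intervals on the deposited values (Adam5 has none), a solid line at 1 and a dotted line at 2. Adam4, Adam6a and Adam6b lie above 2 under all 4 scalings, and Adam1b and Adam18 lie on both sides of 1. Scaling by the median ratio over genes (median of ratios) nearly repeats the deposited values.

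At d24 the members of 1 exon had a lower median share of their adult level than those of several exons. Adam1a, Adam1b, Adam4, Adam6a and Adam6b had a median of 2.65% of the adult level at d16 and of 26.9% at d24, with Adam1b highest at 76.1%. Adam2, Adam3, Adam5, Adam18 and Adam32 stood at 7.60% and 66.7%, with Adam3 lowest at 57.0% at d24. Adam1b was thus the only single-exon member within the d24 range of the other group. Adam6a (26.9%) and Adam6b (26.7%) are similar genes with shared stretches, as are Adam1a and Adam1b, so the single-exon values are not independent. Pachytene markers had medians of 24.4% and 99.6%, round spermatid markers of 0.221% and 39.7%, and elongating spermatid markers of 0.0165% and 12.6%. Single markers varied widely around these medians, at d16 from 1.23% to 71.6% for pachytene and from 0 to 5.75% for round spermatid markers. At d12 the medians were 0.257% for members of 1 exon and 0.0757% for those of several exons. Elongating spermatid markers had a d12 median of 0.0521%. Whether d12 values at such shares come from cells that express these genes was not tested.

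**Figure D5:**
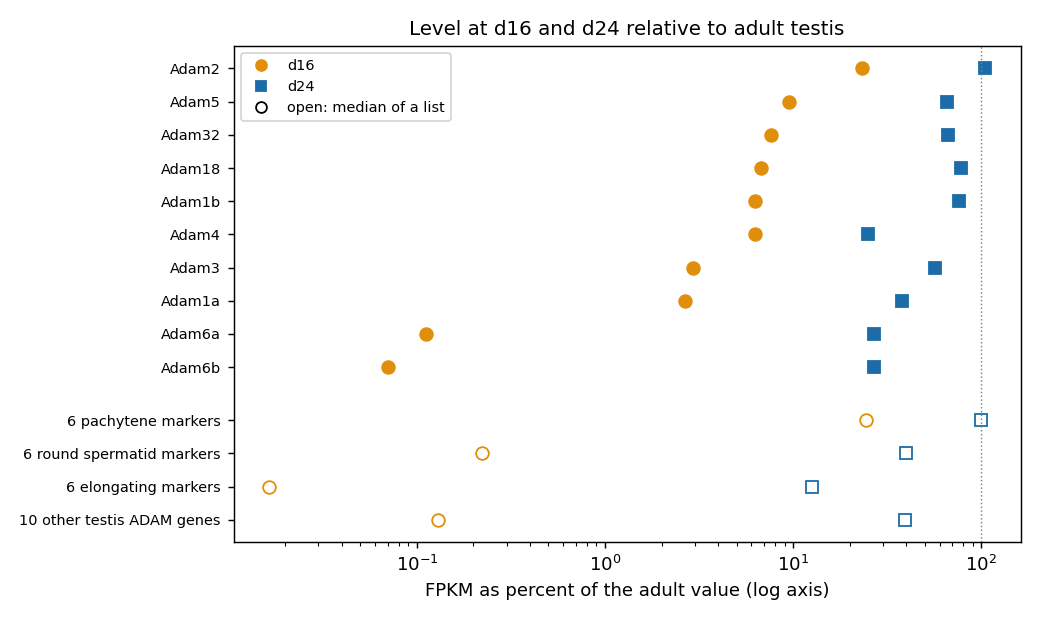
FPKM at d16 (orange) and d24 (blue) as percent of the adult value (log axis) for each member, and as medians (open symbols) for 3 marker lists and for 10 other testis ADAM genes. At d16 the members range from Adam6b at 0.0699% and Adam6a at 0.111%, which rest on 1 and 2 fragments, to Adam2 at 23.2%.

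Other ADAM genes of the testis were mostly at 0 or near it at d16. Of 10 testase and related genes, 1 was at least 2-fold higher at d16 than at d12, near the share of all genes (12.6%). From d16 to d24 all 10 were (27.5% of all genes), and from d24 to the adult 9 were (11.4%). Except for Adam30, all stayed under 1 FPKM at d12 and d16 and passed the filter through later values. For them a higher value at d24 than at d16 was therefore close to fixed in advance. Adam24, the highest of the 10 in the adult, measured 0.0556 FPKM at d12 and 0 at d16, and then 42.9 at d24 and 122.1 in the adult. Adam26a had 64.3 FPKM and Adam20 37.5 in the adult. Adam30, with 5.86 FPKM at d16 and 50.1 in the adult, was the exception and stood above 2 FPKM at d16, where the other 9 of the list did not. The medians of all 10, Adam30 included, were 0.129% of the adult level at d16 and 39.5% at d24. Of 11 widely expressed ADAM genes, 8 passed the filter. Of these, 0, 0 and 1 (Adam22) were at least 2-fold higher over the 3 steps, the last near the share of all genes (11.4%). Adam12 was 2-fold lower at d24 than at d16, as were 8.45% of all genes. Adam17, which sheds membrane proteins in many cell types, measured 22.5 FPKM at d12 and 10.0 in the adult, and Adam10 22.7 and 6.08. Adam7, an ADAM gene of the epididymis, was at 0 in the adult, and Adam28 and Adamdec1 did not exceed 0.141 FPKM.

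Chaperones and maturation factors of sperm ADAM proteins comprised 15 genes. Of these, 6, 8 and 5 were at least 2-fold higher over the 3 steps, and none was lower. Of all genes that passed the filter, 12.6%, 27.5% and 11.4% were higher and 3.67%, 8.45% and 2.2% lower. The 6 were Clgn, Cmtm2a, Cmtm2b, Ly6k, Prss37 and Tex101, although Prss37 rested on 1 fragment at d12 and 5 at d16 (0.0761 and 0.381 FPKM), a ratio whose interval includes 1 (0.560 to 236.9). The 5 were Ace, Calr3, Pdilt, Pmis2 and Prss37. Pdilt and Prss37, both also among the 8, stayed under 1 FPKM at d12 and d16 and passed the filter through later values. Clgn encodes calmegin, the endoplasmic reticulum chaperone that sperm need to carry fertilin and ADAM3, and measured 13.3 FPKM at d12 and 157.7 at d16, and then 610.6 at d24 and 554.0 in the adult. Like Adam2, Clgn was as high at d24 as in the adult. Cmtm2a and Cmtm2b, whose joint loss leaves sperm without ADAM3, measured 0.516 and 0.271 FPKM at d12, 46.7 and 25.3 at d16, 530.5 and 329.1 at d24, and 799.8 and 420.5 in the adult. Calr3 and Pdilt, germ cell chaperones of ADAM3, were late, with 3.02 and 0.224 FPKM at d16, 35.4 and 56.4 at d24, and 157.0 and 152.6 in the adult. Prss37 and Pmis2, both needed for ADAM3 on sperm, had 0.381 and 1.27 FPKM at d16 and 186.2 and 141.2 in the adult. The general chaperones Canx, Calr, Hspa5 and Pdia3 were present throughout, with Canx between 149.3 and 195.4 FPKM. These lists describe levels side by side and no test compares them with the members.

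The genes most like 3 of the members were sought among 7052 genes by the distance of centred log2 values over the 4 libraries. Closest to Adam2 were Mdh1b (distance 0.296), Ccdc108, Wdr63, 4930430A15Rik and Ldhal6b. Mdh1b measured 0.187 FPKM at d12 and 17.6 at d16, and then 72.1 at d24 and 77.9 in the adult. Closest to Adam3 were 1700029F12Rik (0.395), 1700123L14Rik, Ccdc178, Ccdc83 and 1700086L19Rik. Closest to Adam1a were Phyhipl (0.207), 4933417D19Rik, Nol4, 4930444G20Rik and 1700109H08Rik. Phyhipl measured 2.36, 4.20, 54.6 and 129.9 FPKM. With 4 libraries, many genes lie close to any given course.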

How the data were processed

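RNA-seq of 4 testis libraries was analysed, and 4 ChIP-seq samples against H3K27Ac were not used here. The deposited table gives FPKM for 23983 genes, which the authors computed with Cuffdiff (Cufflinks 2.2.1), correcting for multi-mapped reads and sequence bias. Strand-specific pairs had been aligned by TopHat2 2.1.0, running Bowtie 1.1.2, to the GRCm38/mm10 genome with 1 alignment kept per pair. How Cuffdiff scaled the libraries is not given in the sources used here. A median-of-ratios scaling uses, for each library, the median ratio of genes to their geometric mean over the libraries. Its factors for the deposited values were 0.995 to 1.004, so the deposited values nearly equal this scaling. Reads of near-identical genes can be split between them by these steps.

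Fragments were recovered from the deposited FPKM values and RefSeq transcript lengths as multiples of the value of 1 fragment. In each library 91.6% to 92.5% of values up to 20 fragments were whole within 0.05. Fragments on genes numbered 9322609 at d12, 9914529 at d16, then 24967458 at d24 and 12731094 in the adult library. Positions and promoters came from RefSeq for GRCm38.p6, where 22552 symbols and 1268 synonyms matched and 163 did not. Protein sequences were not analysed here. Tools were python 3.11.15, numpy 2.4.6, pandas 2.3.3, scipy 1.17.1, biopython 1.88 and blastn 2.17.0, and scripts were tested on simulated data. With 1 library per stage no test between stages was possible. Named are all members, listed genes (at most 4 by adult level for the other ADAM genes and the genes of sperm binding), nearest coding neighbours and the 5 genes most like 3 members. Adam12, Adam22, Cox16, Dcst1, Spaca6, Zp3r and Zpbp were named outside this rule, after their values were seen. The members, lists and comparisons were chosen with earlier results of these data known. Alternatives were 3 scalings, another pseudocount, no filter, another fold limit and other FPKM thresholds.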

Additional observations from a re-analysis of the deposited data

How the results depend on the processing

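No paired analysis was possible because each stage has 1 library. Of 41 alternatives to the counts and medians, 31 left the value within its limits. The alternatives include the median of ratios, whose factors of 0.995 to 1.004 leave the deposited values almost unchanged. They also include omission of the filter, which could not change a value because all 10 members passed it. Under these settings the outcome was close to fixed in advance. With a pseudocount of 1 FPKM the median log2 difference was 2.46 from d12 to d16 and 3.35 from d16 to d24. With the same FPKM sum it was 2.93 from d16 to d24 and 0.23 from d24 to the adult, and with the upper quartile 3.26 and 0.47. With a limit of 4-fold, 0 members passed from d24 to the adult. Adam4 missed it only through the added 0.1 FPKM, since its ratio of FPKM values was 4.02 (3.62 to 4.46). With a threshold of 1 FPKM, 2 members were above it at d12, and with 5 FPKM, 5 members came first at d16 and 5 at d24. With the same FPKM sum the adult to d24 log2 ratio was -0.086 for Adam1b and -0.13 for Adam18, the opposite of the deposited direction. The 89 alternatives to single ratios also include the median of ratios, which could hardly move them. Of these 89, 51 stayed within the counting interval (for Adam5, which has none, within 0.1 on the log2 scale). Another 36 moved outside it with the same sign. Counting the 2 that reversed, 18 of 19 moves with the same FPKM sum made the log2 ratio smaller in size. With the upper quartile 16 of 17 moves did. The cause of these differences was not tested beyond the scaling itself. Values from 1 to 3 fragments, as for Adam6a and Adam6b before d24, do not show whether these genes are expressed.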

Other observations

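Genes of sperm binding and fusion were read from the same libraries, with 9 of 12 listed genes in the table and 8 with a mean of at least 1 FPKM. Of these 8, 3 were at least 2-fold higher at d16 than at d12 (Acr, Zpbp and Zpbp2; 12.6% of all genes). Another 2 were at least 2-fold lower (Izumo1 and Spaca6; 3.67%). These 2 rest on few fragments, 12 and 2 for Izumo1 and 28 and 8 for Spaca6. Intervals of their ratios (0.018 to 0.750 and 0.113 to 0.645) include differences smaller than 2-fold. From d16 to d24 all 8 were at least 2-fold higher (27.5% of all genes). Dcst1, Izumo1, Spam1 and Zp3r stayed under 1 FPKM at d12 and d16 and passed the filter through later values. For these genes a higher value at d24 than at d16 was close to fixed in advance. From d24 to the adult 5 were (11.4%), namely Dcst1, Izumo1, Spaca6, Spam1 and Zp3r. Zpbp2, an acrosomal protein that binds the egg coat, had the highest adult level and measured 0.684 FPKM at d12 and 19.9 at d16, and then 283.5 at d24 and 339.1 in the adult. Acr, the acrosomal protease acrosin, measured 0.348, 10.0, 93.7 and 119.8 FPKM. Izumo1, the sperm protein that binds the egg membrane for fusion, measured 0.642 FPKM at d12 and 0.107 at d16, and then 35.1 at d24 and 82.5 in the adult. Spam1, a sperm hyaluronidase, measured 0.0379, 0, 27.9 and 60.5 FPKM. At d16 the median of the 9 genes was 0.137% of the adult level, and at d24 it was 47.6%. Of 6 epididymis markers, 6 were listed at 0 at d12 and 2 in the adult, where their sum was 4.22 FPKM.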
